A study of Mus musculus with 6 samples.

Results

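Endoderm markers were followed in E14TG2a, a wild-type mouse embryonic stem cell line, through 3 stages of its differentiation towards neurons. The 10 markers were chosen by name, as the genes Gata4, Gata6, Sox17, Sox7, Foxa2, Dab2, Afp, Ttr, Amn and Apoa1, out of 46517 gene IDs in each library. No measured value set the rule of that choice, but earlier results of these data were known when it was made. The stages were untreated stem cells (mESC), kept without feeder cells on gelatin in medium with serum and LIF, neuronal progenitors (NPC), and NC, an abbreviation that the labels leave unexplained and that is read here as the glutamatergic pyramidal neurons of the design text. NPC and NC cells had gone through neuronal differentiation by a published protocol, all 3 stages carry the same wild-type genotype, and all come from 1 cell line. Each stage had 2 libraries of poly(A)-enriched, rRNA-depleted RNA, which the labels describe as biological replicates. The p-values given here set a difference of stage means against the spread within these pairs of libraries. That spread is pooled over the stages and moderated across all tested genes, and it covers no variation beyond these libraries.

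In the mouse blastocyst, the inner cell mass divides into the epiblast, which forms the embryo and is the source of embryonic stem cells, and the primitive endoderm, which forms the visceral and parietal endoderm of the yolk sac. GATA6, GATA4, SOX17 and SOX7 are transcription factors of that primitive endoderm, and cultures of embryonic stem cells in serum and LIF are known to hold some cells with its markers. Definitive endoderm, the source of gut, liver and lung, arises later at gastrulation and uses several of the same factors, among them GATA4, GATA6, SOX17 and FOXA2. DAB2 and AMN belong to the machinery by which visceral endoderm takes up proteins, and AFP, transthyretin (the product of Ttr) and apolipoprotein A-I (the product of Apoa1) are proteins that it and the fetal liver secrete.

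Values are deposited TPM, a transcript abundance per length that sums to the same total in each library. The aligned bases, recovered from the ratio of coverage to FPKM, lay between 1.57 and 2.27 Gb per library, and the tables hold no read counts. Stem cell factors were high in the mESC libraries, with Pou5f1 (OCT4) at 1475 and 1891 TPM against at most 1.08 TPM in the other 4 libraries. Pax6, a factor of neural progenitors, stood at 257 and 181 TPM in NPC. Tubb3, the neuronal tubulin, stood at 2135 and 1911 TPM in NC. Slc17a7, the vesicular glutamate transporter VGLUT1, stood at 3.21 and 1.69 TPM there and at 2.86 and 2.07 TPM in mESC. Slc17a6, the transporter VGLUT2, stood at 28.9 and 21.6 TPM in NC, and Gad1, the gene of an enzyme that makes GABA, at 89.8 and 101.7 TPM. The transmitter type of the NC cells was not tested. All 37 mitochondrial genes were listed at 0 in every library, for a reason that is not known here. Whether a 0 of a single nuclear gene is a failed estimate was not tested. A 0 below is therefore the listed value and does not show absence.

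All 10 markers passed the filter of at least 1 TPM in at least 2 of the 6 libraries, among 20232 genes that did, and were tested with limma on log2(TPM + 1). On this scale a log2 fold change understates the change of a gene with few TPM. Amn and Afp passed the filter through 3 libraries only. For the step to NPC, 3 markers rose, Sox17, Foxa2 and Apoa1, against 26.0% of all tested genes that rose. Amn fell, against 14.0% of all tested genes that fell. From NPC to NC, 3 markers fell, Sox17, Sox7 and Apoa1, and 0 rose, against 10.1% and 15.2% of all tested genes. Between NC and mESC, 2 markers fell, Amn and Sox7, and 0 rose, against 22.1% and 37.8%. In either direction that is 4, 3 and 2 of 10 markers beside 40.0%, 25.3% and 59.9% of all genes, so the share of markers called in the first 2 comparisons is close to that of all genes. The median log2 fold change of the 10 markers was 0.84 for NPC over mESC, beside 0.18 for all tested genes. It was -1.75 for NC over NPC, beside 0.11, and -0.36 for NC over mESC, beside 0.31. With no filter on low values, Sox7 in NC against mESC was the only call among the markers that passed. Both steps share the NPC libraries, so a rise followed by a fall rests in part on the same 2 values.

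**Figure D1:**
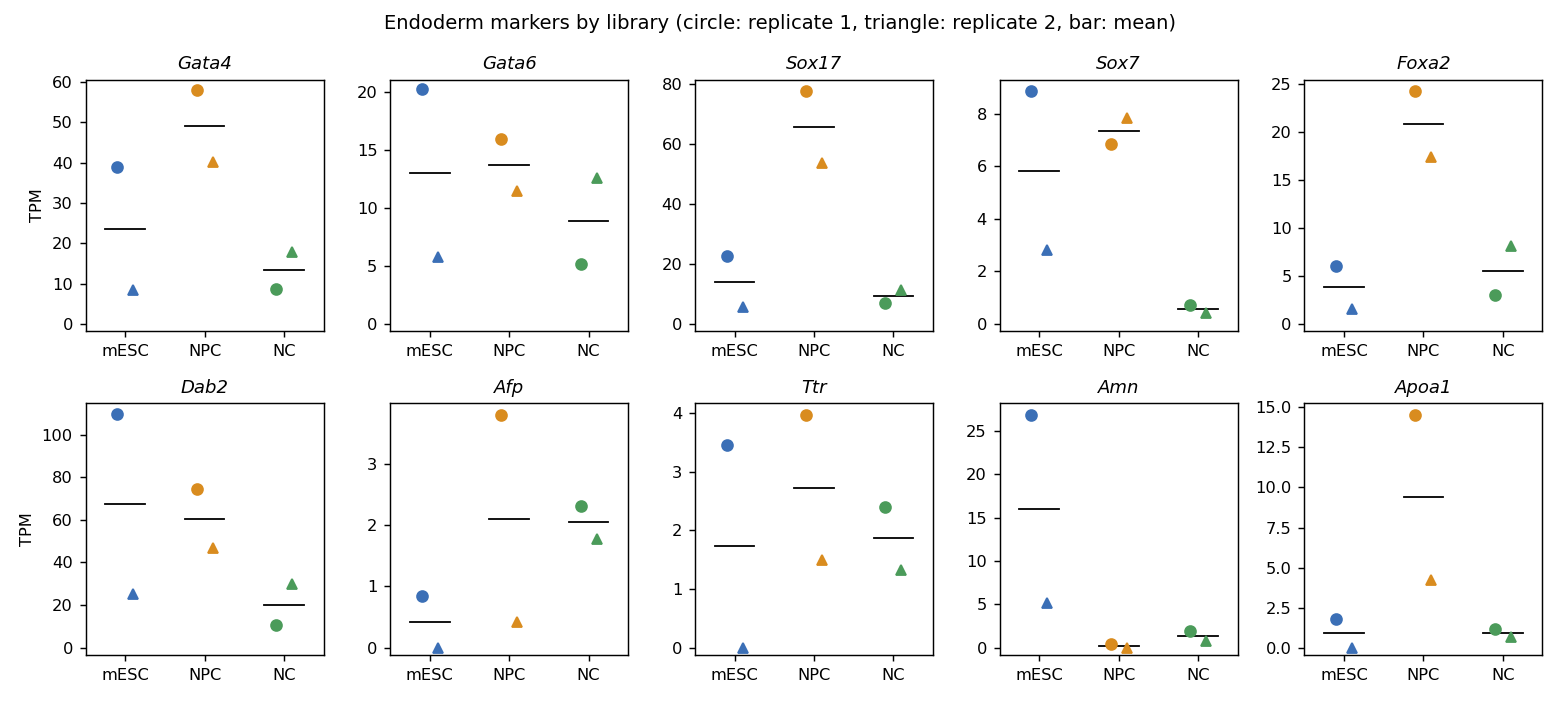
TPM (vertical axis, linear, a scale of its own for each gene) of the 10 endoderm markers at the stages mESC, NPC and NC, with circles for replicate 1, triangles for replicate 2 and bars for the mean of the 2 libraries. Replicate 1 lies above replicate 2 in mESC for every marker, and Sox17, Foxa2 and Apoa1 are highest in the 2 NPC libraries.

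The GATA factors bind the same short DNA motif through zinc fingers, and Gata6 (ENSMUSG00000005836.8, chromosome 18) acts at the head of primitive endoderm formation. Gata6 stood at 20.3 and 5.76 TPM in mESC, at 16.0 and 11.5 TPM in NPC and at 5.14 and 12.6 TPM in NC. The 3 stages overlapped, and the fitted change was 0.28 (SE 0.603, limma adjusted p = 0.752) for NPC against mESC. The difference between the 2 mESC libraries was larger than that between any 2 stage means. Gata4 (ENSMUSG00000021944.14, chromosome 14, 63198922 to 63271692 in mm10), a partner of Gata6 that heart and gut also use, stood at 38.9 and 8.42 TPM in mESC, at 58.1 and 40.2 TPM in NPC and at 8.65 and 17.95 TPM in NC. Both NPC libraries were above both mESC libraries, though mESC replicate 1 lay close to NPC replicate 2. The change did not pass (limma log2 fold change 1.35 with an SE of 0.669, adjusted p = 0.157), and it passed without mESC replicate 1 (2.39, adjusted p = 0.0376). For NC against NPC it was -1.87 (limma adjusted p = 0.0867), with both NC libraries below both NPC libraries, and it passed after quantile normalization (-2.13, adjusted p = 0.0437).

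Sox17 and Sox7 encode SOX factors of the F group, which carry an HMG box that bends DNA and which also act in blood vessel endothelium. Sox17 (ENSMUSG00000025902.12, chromosome 1, 4490931 to 4497354) stood at 22.6 and 5.48 TPM in mESC, at 77.7 and 53.5 TPM in NPC and at 6.95 and 11.3 TPM in NC. Its NPC libraries were apart from all 4 others, and Sox17 rose in NPC against mESC (limma log2 fold change 2.40 with an SE of 0.587, adjusted p = 0.0183) and fell in NC against NPC (-2.73, SE 0.587, adjusted p = 0.0195). The rise did not pass without mESC replicate 2 (1.47, adjusted p = 0.0652), without NPC replicate 1 (2.14, adjusted p = 0.115) or without NPC replicate 2 (2.67, adjusted p = 0.0725). The fall did not pass without any 1 of the NPC or NC libraries (adjusted p from 0.0771 to 0.143), with log2 fold changes between -3.04 and -2.41.

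Sox7 (ENSMUSG00000063060.5, chromosome 14, 63943674 to 63950732), known for the parietal branch of the primitive endoderm, stood at 8.87 and 2.80 TPM in mESC, at 6.84 and 7.83 TPM in NPC and at 0.716 and 0.402 TPM in NC. Unlike Sox17 it did not pass in NPC against mESC (log2 fold change 0.44, SE 0.456, limma adjusted p = 0.486), where mESC replicate 1 was above both NPC libraries and replicate 2 below both. Without mESC replicate 1 it passed (1.13, adjusted p = 0.0498). Sox7 fell in NC against NPC (-2.42, SE 0.456, limma adjusted p = 0.0129) and in NC against mESC (-1.98, adjusted p = 0.00950), and its NC libraries were below all 4 others. The call against NPC was lost without any 1 of the NPC or NC libraries (adjusted p from 0.0562 to 0.0924), and the call against mESC without NC replicate 2 (adjusted p = 0.0661). Sox17 exceeded Sox7 by 2.55 and 1.96 times in the mESC libraries, by 11.4 and 6.83 times in NPC and by 9.71 and 28.1 times in NC. These ratios depend on the deposited column: on coverage per Gb they were 1.10 and 0.977 for the mESC libraries, 3.57 and 2.57 for NPC, and 3.72 and 13.8 for NC, so Sox17 was below Sox7 in mESC replicate 2.

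Foxa2 (ENSMUSG00000037025.10, chromosome 2, 148042877 to 148046969) encodes a forkhead factor that opens chromatin in visceral and definitive endoderm and that the floor plate and notochord also express. It stood at 6.05 and 1.60 TPM in mESC, at 24.3 and 17.4 TPM in NPC and at 3.00 and 8.09 TPM in NC. Its 2 NPC libraries were above all 4 others, and Foxa2 rose in NPC against mESC (limma log2 fold change 2.33 with an SE of 0.571, adjusted p = 0.0184). The call was lost without mESC replicate 2 (1.61, adjusted p = 0.128), without NPC replicate 1 (2.102, adjusted p = 0.113) and without NPC replicate 2 (2.56, adjusted p = 0.0762). For NC against NPC the change was -1.84 (limma adjusted p = 0.0582), which did not pass on the deposited TPM and passed after median-of-ratios scaling (-1.90, adjusted p = 0.0471), after quantile normalization (-2.03, adjusted p = 0.0365), on FPKM (-1.75, adjusted p = 0.0279) and on coverage per Gb (-1.71, adjusted p = 0.0445). Its relative Foxa1, another forkhead factor of endoderm, was at 0.0824 and 0.782 TPM in mESC, at 10.5 and 8.83 TPM in NPC and at 0.107 and 0.762 TPM in NC. Foxa1 rose in NPC against mESC (log2 fold change 2.93, limma adjusted p = 0.00132), while the third member, Foxa3, fell (-0.99, adjusted p = 0.0308), with at most 3.05 TPM in any library. Foxa1 passed the filter through the NPC libraries only and Foxa3 through the mESC libraries only, so each could be tested only because of the stage where it is high.

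**Figure D2:**
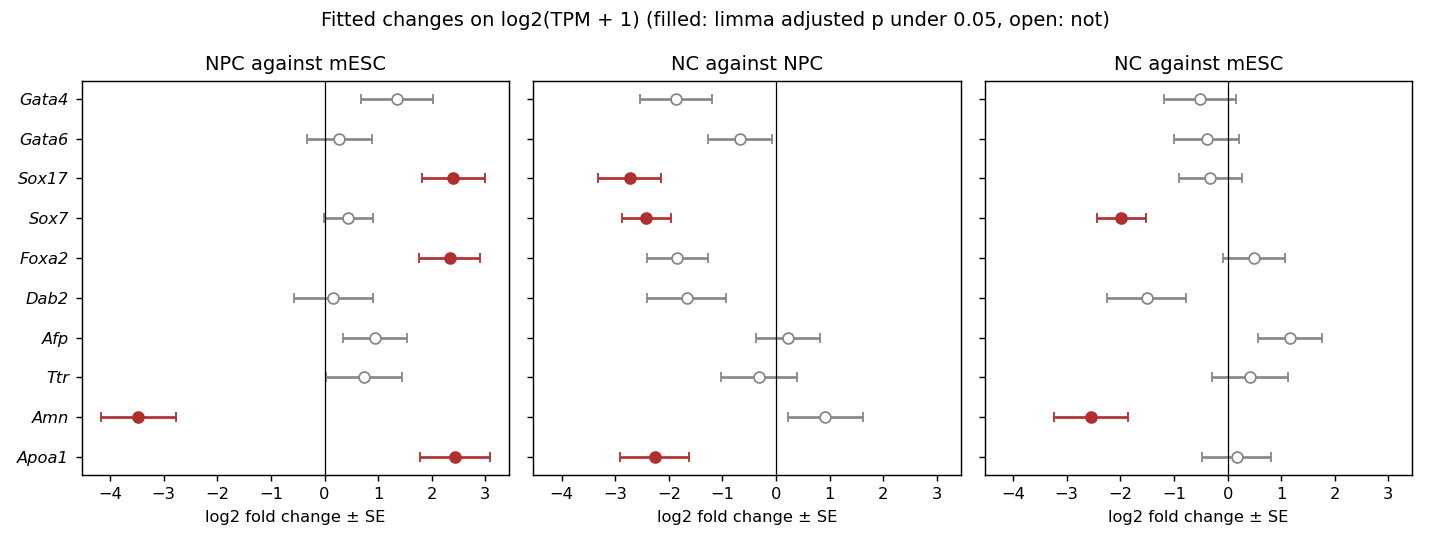
Fitted log2 fold changes on log2(TPM + 1) with their SE (horizontal axis) for the 10 markers (down the page), with a panel for each pair of stages. Filled points passed limma's adjusted p of 0.05, 4 markers for NPC over mESC, 3 for NC over NPC and 2 for NC over mESC, and open points did not.

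The upstream sequences of the 3 markers that moved between NPC and mESC and have a promoter in the RefSeq table are shown because Foxa2 and Apoa1 rose while Amn fell. RefSeq promoters (GRCm38.p6, the assembly of mm10) were matched for Foxa2, Dab2, Afp, Amn and Apoa1. Each line gives the 250 bases before a gene's RefSeq start, 5′ to 3′ on the strand of the gene, at chr9:46228380-46228629 (plus strand) for Apoa1, chr2:148046970-148047219 (minus strand) for Foxa2 and chr12:111270846-111271095 (plus strand) for Amn. Capitals mark matches to a forkhead motif searched as TGTTTAC or TGTTTGC on both strands.
Apoa1: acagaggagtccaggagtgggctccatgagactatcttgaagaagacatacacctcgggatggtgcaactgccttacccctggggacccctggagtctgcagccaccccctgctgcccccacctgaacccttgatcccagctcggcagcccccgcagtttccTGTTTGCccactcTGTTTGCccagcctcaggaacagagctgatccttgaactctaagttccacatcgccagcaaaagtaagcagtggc
Foxa2: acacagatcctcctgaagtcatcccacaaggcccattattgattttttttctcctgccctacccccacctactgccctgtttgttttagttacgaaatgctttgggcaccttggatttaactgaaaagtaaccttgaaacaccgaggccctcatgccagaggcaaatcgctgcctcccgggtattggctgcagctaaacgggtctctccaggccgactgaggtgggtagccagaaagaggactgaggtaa
Amn: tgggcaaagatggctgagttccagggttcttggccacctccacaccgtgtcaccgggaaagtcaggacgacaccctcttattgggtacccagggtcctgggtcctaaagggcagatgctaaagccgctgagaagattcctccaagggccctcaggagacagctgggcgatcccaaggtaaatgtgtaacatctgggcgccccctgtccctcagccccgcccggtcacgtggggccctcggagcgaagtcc
The Apoa1 sequence held the forkhead letters at 2 places, beginning 88 and 75 bases before the start, both on the strand of the gene. Such a match is in 7.30% of 32841 upstream sequences of this length. Neither Foxa2 nor Amn held it in this window. None of these 3 held a GATA motif (AGATAA or TGATAA, in 16.6% of all), a SOX motif (ACAATG or ACAAAG, in 25.2%) or an HNF1 motif (GTTAAT, in 6.43%). Of the other markers with an entry, Dab2 held TGATAA 179 bases before its start. Afp held TGTTTGC at 55, GTTAAT at 105 and the reverse complement of ACAAAG at 144 bases before its start. A match describes the letters and does not show a bound site.

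Dab2 (ENSMUSG00000022150.15, chromosome 15, 6299788 to 6440712) encodes a clathrin adaptor that binds the tails of endocytic receptors and is needed in visceral endoderm. It stood at 109.7 and 24.9 TPM in mESC, at 74.4 and 46.7 TPM in NPC and at 10.5 and 30.0 TPM in NC. The mESC libraries enclosed both NPC libraries, and no contrast of Dab2 passed (log2 fold change 0.16, SE 0.738, limma adjusted p = 0.887 for NPC against mESC). Its change in NC against mESC was -1.51 (limma adjusted p = 0.119), with NC replicate 2 above mESC replicate 2.

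Amn (ENSMUSG00000021278.6, chromosome 12, 111271111 to 111276426) encodes amnionless, the membrane anchor that pairs with cubilin to form a receptor for vitamin B12 bound to intrinsic factor. It stood at 26.8 and 5.10 TPM in mESC, at 0.379 and 0 TPM in NPC and at 1.89 and 0.713 TPM in NC. Every mESC library was above every later library, and Amn is the marker that fell in NPC against mESC (limma log2 fold change -3.47 with an SE of 0.693, adjusted p = 0.00855). It also fell in NC against mESC (-2.55, adjusted p = 0.0181). The first call was lost without NPC replicate 2 (-3.24, adjusted p = 0.0683). The call in NC against mESC was lost without NC replicate 1 (-2.93, adjusted p = 0.0569), without NC replicate 2 (-2.17, adjusted p = 0.122) and without mESC replicate 1 (-1.46, adjusted p = 0.0560).

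Cubn, the cubilin gene, did not follow Amn into NPC. It stood at 81.1 and 13.2 TPM in mESC, at 26.1 and 19.8 TPM in NPC and at 0.919 and 2.41 TPM in NC, and it did not pass in NPC against mESC (log2 fold change -0.52, limma adjusted p = 0.629). It fell in NC against NPC (-3.22, adjusted p = 0.0267) and in NC against mESC (-3.74, adjusted p = 0.00593). Within a library Amn was 0.331 and 0.386 times Cubn in mESC and 0.0145 times in NPC replicate 1, while in NC it was 2.05 and 0.296 times. The difference between these 2 genes was not tested. Lrp2, the gene of megalin, a large receptor that works beside cubilin and also in neuroepithelium, stood at 68.2 and 34.8 TPM in mESC, at 22.3 and 16.8 TPM in NPC and at 4.95 and 14.5 TPM in NC, and fell in NC against mESC (-2.37, adjusted p = 0.00676).

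**Figure D3:**
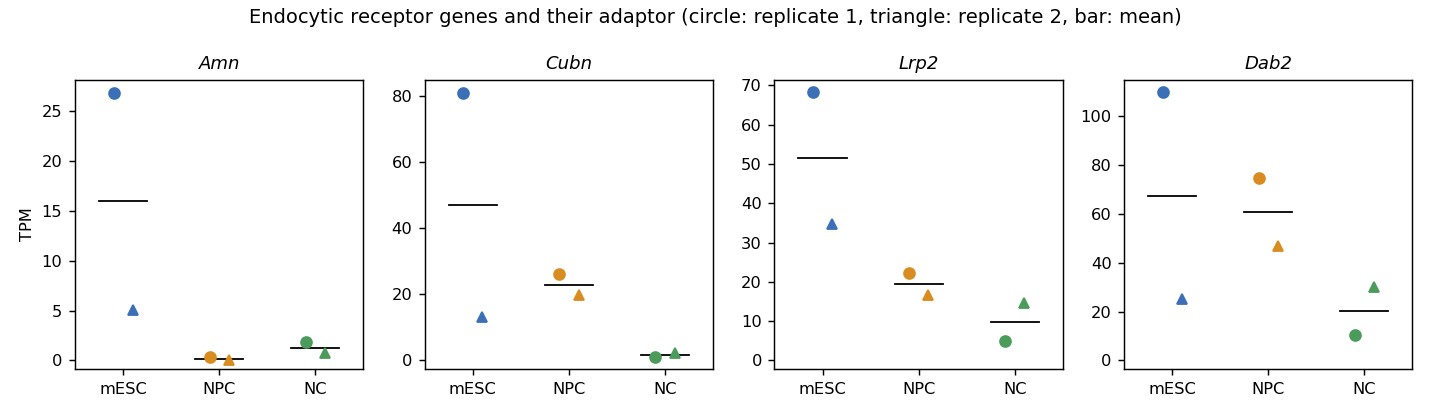
TPM (vertical axis, linear, a scale of its own for each gene) of Amn, its partner Cubn, Lrp2 and the adaptor Dab2 at mESC, NPC and NC, with circles for replicate 1, triangles for replicate 2 and bars for means. Amn is at 0.379 and 0 TPM in NPC, where Cubn is at 26.1 and 19.8 TPM.

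The 3 secreted products were the least abundant markers in mESC. Apoa1 (ENSMUSG00000032083.8, chromosome 9, 46228580 to 46230466), the main protein of high-density lipoprotein, stood at 1.78 and 0 TPM in mESC, at 14.5 and 4.25 TPM in NPC and at 1.16 and 0.630 TPM in NC. The NPC libraries were above all others but differed from each other by 3.42 times. Apoa1 rose in NPC against mESC (limma log2 fold change 2.44 with an SE of 0.648, adjusted p = 0.0249) and fell in NC against NPC (-2.27, SE 0.648, adjusted p = 0.0460). The rise was lost without mESC replicate 2 (1.70, adjusted p = 0.178), without NPC replicate 1 (1.65, adjusted p = 0.131) and without either NC library (adjusted p = 0.0603 and 0.0608). The fall was lost without any 1 of the 6 libraries (adjusted p from 0.0608 to 0.235). Both were also lost with a pseudocount of 0.1 (adjusted p = 0.0523 and 0.161) and in fits of the 2 groups compared alone (adjusted p = 0.0599 and 0.0748), and the fall on coverage per Gb (adjusted p = 0.0557) and without a variance trend (adjusted p = 0.0576).

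Afp (ENSMUSG00000054932.5, chromosome 5, 90490737 to 90508907), alpha-fetoprotein, a carrier protein of fetal serum and a standard marker of visceral endoderm, stood at 0.837 and 0 TPM in mESC, at 3.80 and 0.412 TPM in NPC and at 2.32 and 1.78 TPM in NC. The NPC libraries enclosed all the others apart from the 0 in mESC replicate 2, and no contrast passed (limma adjusted p from 0.134 to 0.819). It passed in NPC against mESC without NPC replicate 2 (log2 fold change 1.83, adjusted p = 0.0489). In NC against mESC its log2 fold change of 1.16 passed in the fit of those 2 groups alone (adjusted p = 0.0458), with the replicate number as a block (adjusted p = 0.0467) and without either NPC library (adjusted p = 0.0453 and 0.0484). Ttr (ENSMUSG00000061808.3, chromosome 18), a carrier of thyroid hormone and, with the product of Rbp4, of retinol, stood at 3.45 and 0 TPM in mESC, at 3.96 and 1.49 TPM in NPC and at 2.40 and 1.32 TPM in NC. Its stages overlapped, and no contrast passed (limma adjusted p from 0.457 to 0.775).

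The 2 stem cell libraries differed in these markers. This spread was set as a point to describe when the markers were chosen, with earlier results of these data known. The counts below are therefore a description. All 10 markers were higher in mESC replicate 1 than in replicate 2, and 9 of them, all except Afp, by at least 2-fold on log2(TPM + 1). Of all tested genes 55.0% were higher in replicate 1, and 4.38% by at least 2-fold. The markers that were above 0 in both libraries differed by 3.17 times (Sox7) to 5.26 times (Amn) in TPM, and Afp, Ttr and Apoa1 were listed at 0 in replicate 2. The difference of Amn was larger in size than those of 99.7% of tested genes and that of Afp, the smallest of the 10, than those of 92.1%. The 10 markers summed to 239 TPM in mESC replicate 1 and 54.1 TPM in replicate 2. With 1 library on each side there is no test of this difference, and whether it reflects more cells with these transcripts or more transcript per cell cannot be told apart in bulk RNA.

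Most other endoderm genes were also higher in mESC replicate 1. Their lists too were chosen with earlier results of these data known, so they are no independent support for the marker difference. All 15 genes of a primitive and parietal endoderm list were higher in replicate 1, 12 of them by at least 2-fold, with Col4a2 at 168 and 32.8 TPM and Lama1 at 368 and 73.9 TPM. These encode a basement membrane collagen and a laminin chain. All 11 tested genes of a visceral endoderm list were higher too, 7 of them by at least 2-fold, with Apoe, a lipid carrier that many cells make, at 1061 and 397 TPM. Of 7 tested genes of definitive endoderm and mesendoderm 6 were higher, 1 of them by at least 2-fold. Anterior visceral endoderm genes were mixed, with 3 of 5 higher in replicate 1 and Lefty1 (213 and 224 TPM) and Hhex (8.16 and 8.91 TPM) higher in replicate 2. Stem cell genes moved little: 5 of 7 were higher in replicate 2, none by 2-fold, with Nanog at 213 and 261 TPM and Pou5f1 at 1475 and 1891 TPM. Among markers of other cell types, the summed level in replicates 1 and 2 was 51.3 and 31.8 TPM for 9 endothelial genes, 69.4 and 36.5 TPM for 8 mesenchyme genes and 29.9 and 39.8 TPM for 8 trophoblast genes. The aligned bases were 1.57 and 2.27 Gb, and the part of depth in the difference was not tested.

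The later stages showed smaller or mixed differences. In NPC 9 of 10 markers were higher in replicate 1, Sox7 being the exception, against 44.5% of all tested genes, and only Afp and Apoa1 differed by at least 2-fold on log2(TPM + 1). In NC the markers split evenly by number, while the 10 summed to 42.7 TPM in replicate 1 and 84.8 TPM in replicate 2. Gata4, Gata6, Sox17, Foxa2 and Dab2 were 1.63 to 2.87 times higher in replicate 2, while Sox7, Afp, Ttr, Amn and Apoa1 were 1.30 to 2.65 times higher in replicate 1. The latter group had at most 2.40 TPM in NC. Of 38 tested genes in the 4 endoderm lists above, 32 were higher in replicate 1 in NPC. In NC 10 of them were, beside 46.2% of all tested genes, and 13 of 15 primitive and parietal endoderm genes were higher in replicate 2. Several other lists also differed between the NC libraries, with 6 neural progenitor genes summing to 1188 and 385 TPM and 8 cardiac genes to 8.29 and 22.2 TPM, and their part in these differences was not tested.

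**Figure D4:**
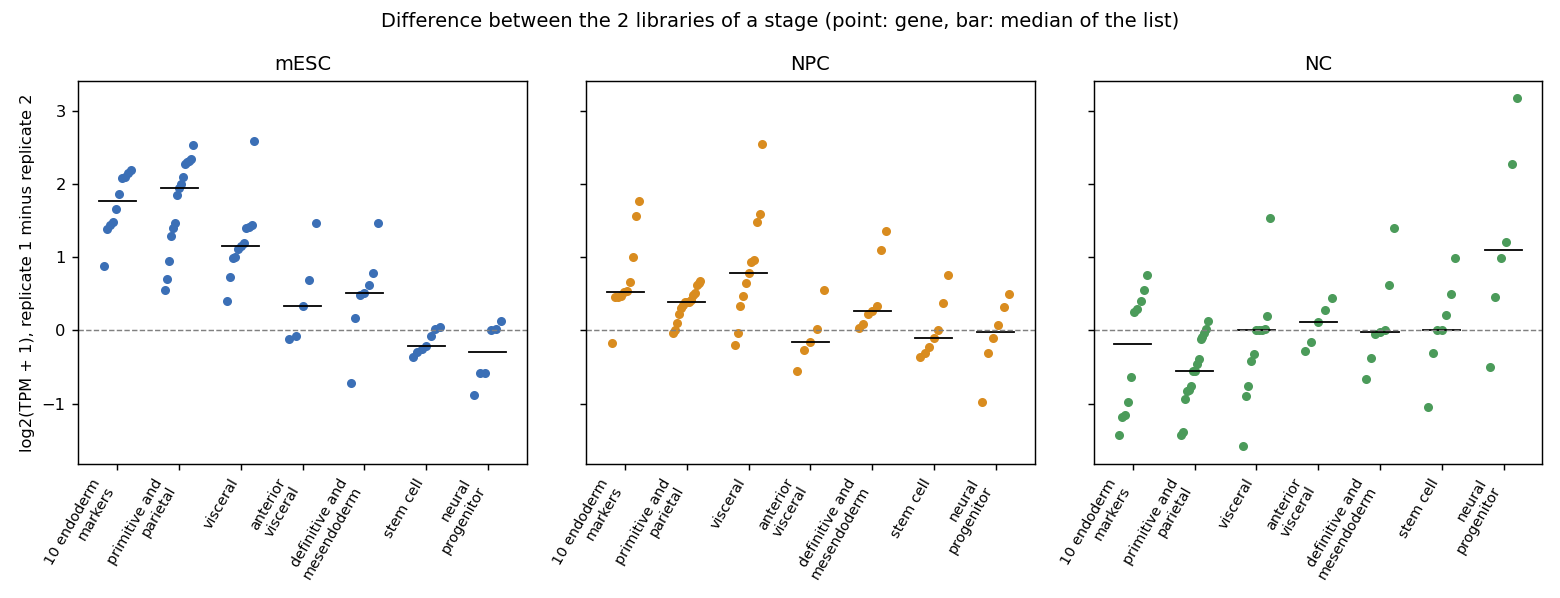
Difference in log2(TPM + 1) between replicates 1 and 2 of a stage (vertical axis) for the tested genes of 7 lists (horizontal axis), with a point for each gene and a bar at the median, in mESC, NPC and NC. In mESC the median is 1.76 for the 10 markers, 1.95 for primitive and parietal endoderm and -0.21 for stem cell genes.

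The proportions of Sox17, Foxa2 and Gata4 to Gata6 were closer within a stage than their levels were. That of Sox17 to Sox7 was not closer in NPC (11.4 and 6.83) or in NC (9.71 and 28.1). Sox17 was 1.11 and 0.952 times Gata6 in the mESC libraries, 4.86 and 4.67 times in NPC and 1.35 and 0.897 times in NC. Foxa2 was 0.298 and 0.278 times Gata6 in mESC, 1.52 and 1.52 times in NPC and 0.584 and 0.641 times in NC. Gata4 was 1.91 and 1.46 times Gata6 in mESC, 3.63 and 3.51 times in NPC and 1.68 and 1.42 times in NC. In each of these 3 ratios the 2 NPC libraries lay above all 4 others. On coverage per Gb they did too, but at other sizes: Sox17 was 0.480 and 0.474 times Gata6 in mESC, 1.53 and 1.76 times in NPC and 0.518 and 0.440 times in NC, and Gata4 was 0.382 times Gata6 or less in every library. With 2 libraries against 2 an exact two-sided permutation test cannot go below p = 0.333, so these ratios are given without a test. They were chosen after the values were seen. Across the 6 libraries the members did not form 1 group: Pearson's r on log2(TPM + 1) was 0.955 between Gata4 and Sox17, 0.948 between Sox17 and Foxa2 and 0.922 between Gata6 and Dab2, but -0.551 between Foxa2 and Amn and -0.216 between Sox7 and Afp. These coefficients describe 6 libraries of 3 stages and carry no test.

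**Figure D5:**
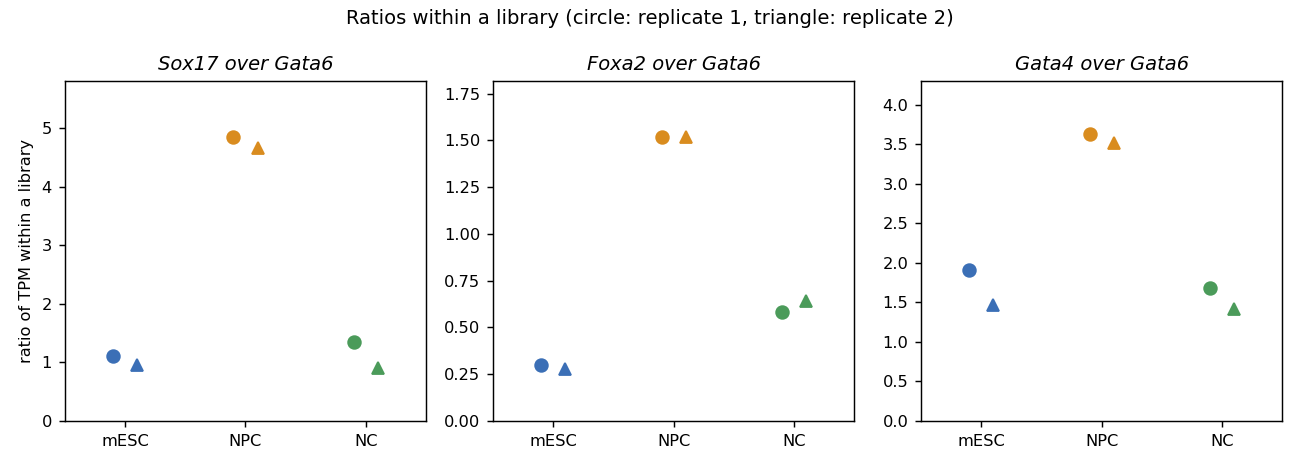
Ratio of TPM within a library (vertical axis, linear from 0) of Sox17, Foxa2 and Gata4 to Gata6 at mESC, NPC and NC, with circles for replicate 1 and triangles for replicate 2. The NPC libraries lie at 4.86 and 4.67, at 1.52 and 1.52, and at 3.63 and 3.51, above all mESC and NC libraries.

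Other genes of the same lineages moved in both directions between NPC and mESC. For all tested genes the shares were 26.0% higher and 14.0% lower in NPC. Of 15 primitive and parietal endoderm genes, 6 rose and 0 fell (median log2 fold change 1.01). They included Pth1r, the parathyroid hormone receptor, at 234 and 199.6 TPM in NPC against 36.4 and 7.74 TPM in mESC (3.58, limma adjusted p = 0.00424), the protease gene Plat (3.51, adjusted p = 0.000819), which neural cells also express, and Fst, the activin antagonist follistatin (2.77, adjusted p = 0.00121). Of 11 tested visceral endoderm genes 4 rose and 4 fell. Rbp4, the plasma retinol carrier, stood at 118 and 38.7 TPM in NPC against 5.71 and 2.11 TPM in mESC (3.91, adjusted p = 0.00608), and Ihh, a hedgehog ligand of visceral endoderm, rose by 2.53 (adjusted p = 0.00970). Apoa4, the neighbour of Apoa1 in a cluster of apolipoprotein genes, was at 9.53 and 2.78 TPM in NPC against 0.653 and 0 TPM in mESC (2.29, adjusted p = 0.0126). In the other direction went Apoc1 (-4.01, adjusted p = 0.0137), Trf, which encodes transferrin (-2.75, adjusted p = 0.000642), and Apoe (-2.28, adjusted p = 0.00814). Apoa4 passed the filter through the NPC libraries only and Trf through the mESC libraries only.

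Of 7 tested genes of definitive endoderm and mesendoderm, 3 rose and 2 fell in NPC against mESC. Nepn, a midgut endoderm marker, was at 33.1 and 12.3 TPM in NPC against 0.124 and 0 TPM in mESC (log2 fold change 4.33, limma adjusted p = 0.000693), having passed the filter through the NPC libraries only, and Cxcr4, a chemokine receptor that neurons also carry, rose by 3.35 (adjusted p = 0.00201). Eomes, a T-box factor of mesendoderm, fell (-1.91, adjusted p = 0.00658), and the gastrulation genes T, Gsc and Mixl1 did not pass the filter, with at most 1.92 TPM in any library. Of 5 tested anterior visceral endoderm genes Lhx1 rose and Lefty1, Otx2 and Hhex fell. Stem cells express Lefty1 and Otx2 and neurons express Lhx1, so this list is not particular to endoderm. Albumin (Alb) was listed at 0 in all 6 libraries. The 4 endoderm lists hold 43 genes besides the markers, of which 38 were tested: 14 rose and 9 fell, beside 26.0% and 14.0% of all tested genes. Of the 38, 6 passed the filter through 1 stage only (Foxa1, Nepn and Apoa4 through NPC, Foxa3, Trf and Lefty1 through mESC), and these counts include them. Without mESC replicate 1 it was 15 and 6, with a median log2 fold change of 0.95, and without mESC replicate 2 it was 8 and 10, with a median of -0.63, so the balance of the lists depends on which mESC library is used.

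From NPC to NC, 3 of the 38 tested endoderm genes rose and 11 fell, beside 15.2% and 10.1% of all tested genes. Of 11 tested visceral endoderm genes, 5 were among those that fell and none among those that rose. Those that fell include Foxa1, Nepn and the visceral endoderm gene Apoa4, which passed the filter through the NPC libraries only. Ihh fell to 0.288 and 1.40 TPM in NC, against 19.5 and 15.3 TPM in NPC (log2 fold change -3.38, limma adjusted p = 0.00752), and Nepn to 0 and 0.296 TPM, against 33.1 and 12.3 TPM in NPC (-4.23, adjusted p = 0.00348), the stage that let it pass the filter. Nid1 and Thbd, of the primitive and parietal endoderm list, and Lhx1 rose. The number called fell to 1 without NPC replicate 1, to 5 without NPC replicate 2, to 5 without NC replicate 1 and to 4 without NC replicate 2. In NC against mESC, the endoderm genes that fell include Lefty1, Foxa3 and Trf, which passed the filter through the mESC libraries only. With these counted, 5 rose and 13 fell (median log2 fold change -0.64), beside 37.8% and 22.1% of all tested genes. Without mESC replicate 1 it was 9 and 10 (median 0.0040), and without mESC replicate 2 it was 4 and 17 (median -1.35).

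Several markers are shared with cell types outside the endoderm, and lists of those cells were measured beside them. The calls in these short lists stand beside 26.0% of all tested genes that rose and 14.0% that fell in NPC against mESC. For NC against NPC these shares were 15.2% and 10.1%, and for NC against mESC 37.8% and 22.1%. In NPC, where Sox17 and Foxa2 were highest, the 9 endothelial genes summed to 50.7 and 41.2 TPM, of which Flt1 alone made 41.3 and 31.5 TPM, while Cdh5 stood at 2.05 and 2.34, Emcn at 0.233 and 0.570 and Erg at 0.507 and 0.353 TPM. Of the 7 tested, Flt1 rose in NPC against mESC and Pecam1 and Tek fell. Among 7 floor plate genes, which could accompany Foxa2, Shh was at 0.795 and 1.02 TPM in NPC against 0 and 0 TPM in mESC, and Nkx2-2 stood at 0.540 and 0.0761 TPM in NPC. Of the 3 floor plate genes tested, Spon1 rose (7.89 and 5.09 TPM in NPC against 0.601 and 0.563 TPM in mESC, limma adjusted p = 0.00446) and so did Lmx1b (2.35 and 1.98 TPM in NPC against 0.369 and 0.258 TPM in mESC, adjusted p = 0.00655). Ntn1 did not pass, at 29.2 and 23.7 TPM in NPC against 51.2 and 36.2 TPM in mESC. Among 8 cardiac genes, which could accompany Gata4 and Gata6, Nkx2-5 lay between 0.371 and 1.43 TPM in the 6 libraries. Of the 5 cardiac genes tested, Isl1, which neurons also express, rose in NPC (5.28 and 6.06 TPM against 0.351 and 0.691 TPM in mESC, limma adjusted p = 0.00661), Myh6 fell, and Myl7 stood at 6.16 and 1.89 TPM in NPC against 5.66 and 5.62 TPM in mESC. In NC against mESC Isl1, Tnnt2 and Hand2 rose and Myl7 fell. Among 9 choroid plexus genes, which could accompany Ttr, Kl and Tmem72 stood at 0.0921 TPM or less in every library. Clic6 stood at 11.1 and 1.97 TPM in mESC, at 19.7 and 11.6 TPM in NPC and at 2.18 and 3.61 TPM in NC, and passed in no contrast. In NC against mESC Msx1 and Aqp1 rose and Folr1 fell. Of the 6 choroid plexus genes tested, Msx1 rose (51.6 and 98.3 TPM in NPC against 1.22 and 0.522 TPM in mESC, limma adjusted p = 0.000131), as did Lmx1a (3.98 and 2.90 TPM in NPC against 0.275 and 0.0913 TPM in mESC, adjusted p = 0.00171), while Folr1 fell (16.1 and 14.1 TPM in NPC against 37.2 and 54.1 TPM in mESC, adjusted p = 0.00743). Of 6 macrophage genes, which could accompany Dab2, Adgre1 was listed at 0 in every library, and Ptprc and Cx3cr1 stayed at or under 0.0292 TPM, while Cd68 stood between 3.07 and 8.80 TPM. Csf1r rose in NC, at 1.21 and 2.48 TPM, against 0.353 and 0.321 TPM in NPC (limma adjusted p = 0.0412) and 0.151 and 0.0199 TPM in mESC (adjusted p = 0.00704). Lmx1a passed the filter through the NPC libraries only, Myh6 through the mESC libraries only, and Tnnt2 and Csf1r through the NC libraries only. Each of these genes could be tested only because of the stage where it is high. The part of these cell types in the marker values was not tested. In NC the 8 mesenchyme genes summed to 808 and 917 TPM, against 39.5 and 82.2 TPM in NPC, and the part of such cells in the NC values of Gata4, Gata6 and Dab2 was not tested.

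The order of the markers by level depended on which deposited column was read. By TPM, Dab2 led in mESC (mean 67.3 TPM ± 59.9, SD, n = 2), followed by Gata4 (23.6 ± 21.5), Amn (16.0 ± 15.4), Sox17 (14.1 ± 12.1) and Gata6 (13.0 ± 10.3). These SDs hold a difference between the 2 libraries that went the same way for all 10 markers. In each mESC library Dab2 was above Gata4, and Gata4 above Amn, Sox17 and Gata6. The order of Amn, Sox17 and Gata6 differed between the 2 libraries. In NPC Sox17 led (65.6 TPM ± 17.2), with Dab2 (60.5 ± 19.6) and Gata4 (49.1 ± 12.6) within its spread but below it in each library. Then came Foxa2 (20.8 ± 4.89), Gata6 (13.7 ± 3.22), Apoa1 (9.39 ± 7.27) and Sox7 (7.34 ± 0.696). In NC Dab2 again led (20.2 TPM ± 13.8), and Sox7 was last (0.559 ± 0.222). FPKM exceeded the coverage per Gb by 10.3 to 12.2 times for Dab2 and 9.31 to 10.1 times for Gata4, by 2.01 to 3.18 times for Sox17, and by 1.00 times for Gata6, Sox7, Ttr and Amn. Read as coverage per Gb, Amn and Gata6 led in mESC (7.63 and 6.25), with Dab2 (2.66) and Gata4 (1.18) well below them, and Sox17 and Foxa2 led in NPC (10.03 and 8.13). The sizes of the ratios of Gata4 and Sox17 to other factors therefore differ between the TPM and coverage scales. This factor varied between libraries most for Sox17, and the same 4 and 2 markers were called on coverage per Gb in NPC against mESC and in NC against mESC.

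Gene models on the opposite strand overlapped 5 of the markers, and the sources used here do not say whether strand was used in quantification. For Dab2 and Afp the overlapping gene was listed at 0 in every library. Sox17 overlaps Gm37587, at 0.952 TPM or less, and Ttr overlaps Gm16090, at 0.695 TPM or less, a level that is not small beside the 0 to 3.96 TPM of Ttr. Gata6 overlaps 1010001N08Rik, which stood at 3.93 and 1.02 TPM in mESC, at 1.96 and 1.81 TPM in NPC and at 0.826 and 1.77 TPM in NC, so it was higher in mESC replicate 1 as Gata6 was.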

How the data were processed

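Gene abundance tables of 6 RNA-seq libraries, 2 for each of 3 stages, were used as deposited. The submitters' processing notes name StringTie 2.1.5, the aligner STAR 2.7.9a, the build mm10 and cutadapt 3.4, besides FastQC, DESeq2 and R 4.0.3, with no order or settings, and the annotation release and use of strand are not stated. Each table holds coverage, FPKM and TPM computed by the authors: coverage is not normalized, FPKM is per length and depth, and TPM is FPKM rescaled to 1 total per library, per the file headers and the values. No counts were used, so counting intervals cannot be given.

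Lines of the same gene ID, at most 9 IDs per table, were summed. Genes with at least 1 TPM in at least 2 libraries were fitted with limma 3.58.1 in R 4.3.3 on log2(TPM + 1), with all 3 stages sharing 1 variance (3 residual degrees of freedom) and Benjamini-Hochberg adjustment at 0.05 over all tested genes. The fit was tested on simulated data. The tables are in TPM and not counts, so no count model was used. Alternatives were a pseudocount of 0.1, no filter, FPKM, median-of-ratios and quantile scaling, no variance trend, 2 groups at a time, a replicate block, each library left out, and coverage per Gb. By the naming rule the text gives all 10 markers, up to 3 genes per direction and comparison with the largest change among those past the threshold in each of 17 lists (129 genes besides the markers), list members at 0, and genes most like each marker by Pearson's r. Other list members, such as Lama1, Col4a2, Apoa4, Foxa3, Folr1, Clic6 and Lrp2, were named after their values were seen. The markers and the lists were chosen with earlier results of these data known. Upstream sequences came from RefSeq (GRCm38.p6). Some listed genes are not reported here by name.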

Additional observations from a re-analysis of the deposited data

How the results depend on the processing

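Without the filter 0 markers passed in NPC against mESC, 0 in NC against NPC and 1 in NC against mESC, and 3166 genes passed in NC against NPC. Quantile normalization gave 5 markers in NC against NPC. The median difference between the mESC libraries was 1.19 on coverage per Gb, an alternative added after the data were seen, against 1.76 on TPM. Changes that took the other sign were those of Apoa1 in NC against mESC (-0.00321 on FPKM, -0.00969 on coverage, -0.16 with quantiles), Afp in NC against NPC (-0.0265 on coverage), Dab2 in NPC against mESC (-0.0729 with median-of-ratios scaling), Gata6 in NPC against mESC (-0.10 with quantiles) and Foxa2 in NC against mESC (-0.0608 with quantiles). None of these had passed. The cause was not tested. With 1 library left out at a time, genes called ranged from 4032 to 8484 in NPC against mESC, from 309 to 4156 in NC against NPC and from 9499 to 11187 in NC against mESC. Markers called ranged from 1 to 6, from 0 to 2 and from 0 to 3, and the listed endoderm genes (added after the data were seen) from 13 to 21, from 1 to 19 and from 14 to 21. A stage left with 1 library was assumed to vary like the others. Fold changes in NPC against mESC then ranged from -0.55 to 1.11 for Gata6, from -0.25 to 1.13 for Sox7, from -0.88 to 1.21 for Dab2 and from -0.34 to 1.81 for Ttr. In NC against NPC they ranged from -0.66 to 1.10 for Afp and from -0.82 to 0.18 for Ttr. In NC against mESC they ranged from -1.56 to 0.52 for Gata4, from -1.22 to 0.44 for Gata6, from -1.26 to 0.61 for Sox17, from -0.23 to 1.21 for Foxa2, from -0.66 to 1.49 for Ttr and from -0.57 to 0.91 for Apoa1. Over all tested genes, deviations of same-numbered libraries correlated at 0.0455 for mESC and NPC, -0.0703 for NPC and NC and -0.0819 for mESC and NC. Such values over all genes cannot show whether a replicate number marks a shared culture. With the number as a block 7368, 4247 and 11575 genes and 4, 3 and 3 markers passed. The tables hold no counts, so what depth limits could not be computed. Read as coverage per Gb, the ratio of Sox17 to Gata6 averaged 0.477, 1.64 and 0.479 in mESC, NPC and NC, against 1.03, 4.76 and 1.12 on TPM (added after the data were seen).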

Other observations

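Mesenchyme genes were higher at the last stage. All 8 of the list rose in NC against mESC by limma's test (median log2 fold change 3.78), beside 37.8% of all tested genes. Dcn and Lum passed the filter through the NC libraries only, so the count includes 2 genes that were tested because they are high there. Col3a1, a fibrillar collagen, stood at 244 and 502 TPM in NC against 14.6 and 35.9 TPM in NPC, and Dcn, the matrix proteoglycan decorin, at 20.1 and 22.4 TPM against 0 and 0.504 TPM in NPC. Fgfr2, a receptor for FGF4, the signal that directs inner cell mass cells to primitive endoderm, stood at 67.7 and 82.3 TPM in NPC against 9.85 and 10.03 TPM in mESC (2.79, limma adjusted p = 0.000198). Fgf4 itself stood at 0.220 and 0.174 TPM in NPC against 128 and 99.6 TPM in mESC (-6.57), and it passed the filter through the mESC libraries only.

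The genes whose log2(TPM + 1) followed a marker most closely over the 6 libraries of 3 stages were all outside the listed gene groups. Ssfa2 was closest to Gata4 (Pearson's r = 0.991), Zfp109 to Gata6 (0.997), Neil3 to Sox17 (0.990), Ncaph2 to Sox7 (0.992), Rnf128 to Foxa2 (0.993) and Arhgap8 to Dab2 (0.988). Gpr39 was closest to Afp (0.994), Dtnb to Ttr (0.997), Elovl6 to Amn (0.996) and Adssl1 to Apoa1 (0.983). Between 5 genes (Afp) and 131 genes (Amn) reached an r of 0.95 with a marker. With 6 points many genes follow any pattern, and these coefficients are a description.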
